A study of Mus musculus with 19 samples.

Results

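Glycolysis splits glucose into pyruvate, and 10 genes that encode its enzymes were followed here across LSK cells and common myeloid progenitors (CMPs) that carried an shRNA against the lncRNA Spehd or a control shRNA. The genes are Hk1 and Hk2 (hexokinases), Gpi1 (glucose-6-phosphate isomerase), Pfkl (the liver-type phosphofructokinase), Aldoa (aldolase A), Tpi1 (triose-phosphate isomerase), Gapdh (glyceraldehyde-3-phosphate dehydrogenase), Pgk1 (phosphoglycerate kinase), Pkm (pyruvate kinase M) and Ldha (lactate dehydrogenase A). They were chosen by name, and all 10 were found among the 54352 genes counted in each of the 19 libraries. All 10 passed the filter on low counts in every comparison.

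On GRCm38, the build of the counts, Hk1 spans chr10:62268855-62379908, Hk2 chr6:82725025-82774454, Gpi1 chr7:34201330-34230336 and Pfkl chr10:77986947-78010083, all on the minus strand. Aldoa is annotated under 2 identifiers, at chr7:126795234-126800751 and chr7:126800790-126809108, and Tpi1 and Gapdh lie on chromosome 6 at chr6:124810586-124814296 and chr6:125161715-125166467, also on the minus strand. Pgk1 (chrX:106187100-106203699), Pkm (chr9:59656368-59679375) and Ldha (chr7:46841475-46855627) are on the plus strand.

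In the first steps of the pathway ATP is spent: hexokinase traps glucose in the cell as glucose-6-phosphate, and phosphofructokinase catalyses the committed step. In the later steps ATP is regained by phosphoglycerate kinase and pyruvate kinase, and lactate dehydrogenase turns pyruvate into lactate while restoring the NAD+ that Gapdh uses. Haematopoietic stem cells reside in a poorly oxygenated marrow niche and are known to rely on glycolysis, and many of these genes are targets of the hypoxia-inducible factor HIF-1.

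The labels give the donors' strain as C57BL6. Haematopoietic stem cells were transduced with a doxycycline-inducible vector that couples an shRNA to the green reporter zsGreen, and were transplanted into irradiated mice. After 10 weeks of reconstitution and 6 days on doxycycline food, zsGreen+ cells were sorted from bone marrow as LSK cells (Lineage-, Sca1+, cKit+; KLS in the labels), a compartment that holds stem cells and multipotent progenitors, or as CMPs. Spehd was targeted with sh10 or sh20, and the control shRNA was directed against Renilla luciferase, a gene that mice lack. The LSK libraries comprised 4 with Renilla, 3 with sh10 and 3 with sh20 shRNA. The CMP libraries comprised 4 with Renilla, 3 with sh10 and 2 with sh20 shRNA. All groups therefore share the transplantation, the doxycycline and the reporter, and each sort can hold cells of several kinds. The labels do not say whether replicates came from separate animals, so p-values measure the spread between libraries, which may in part be technical.

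The libraries held between 3647318 and 5965155 gene counts, with a median of 4918631. Every Spehd shRNA library from CMPs (4918631 to 5965155 counts) was deeper than every Renilla library from CMPs (3857980 to 4314959), so depth and knockdown cannot be told apart in CMPs. With log2 of the library total in the fit, 0% of genes passed an adjusted p of 0.05 in any shRNA comparison in CMPs. A call lost in that fit therefore does not single out a gene. In LSK cells the totals overlapped, with 3647318 to 4967015 for Renilla and 4649170 to 5617906 for Spehd shRNAs. The CMP sh20 libraries (5680969 and 5965155) were also deeper than every CMP sh10 library (4918631 to 5228700) and every LSK sh20 library (4649170 to 5386811). The Sca1 gene Ly6a lay between 39.9 and 81.4 CPM (counts scaled to a common library size by the TMM method over the 19 libraries) in LSK libraries and between 1.58 and 9.81 CPM in CMP libraries. Kit was present in all libraries, at 394 to 956 CPM. No gene counted bears the name Spehd, so its knockdown is not analysed here.

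The shRNAs are shown because guide strands can also act on other transcripts through their seed, bases 2 to 8, given in capitals. The guides are as follows.
sh10: tACAAAGTcagcttttcctctc
sh20: tATGCTATgacaacccagggca
The exact complement of the sh10 seed, ACTTTGT, occurred 1 time each in the longest coding transcripts of Hk1, Gpi1, Gapdh and Pgk1. That of the sh20 seed, ATAGCAT, occurred 1 time, in Tpi1. Over the 10 transcripts this was 1.48 matches per 10 kb for sh10 and 0.37 for sh20, beside 1.10 and 0.41 per 10 kb over the longest coding transcripts of all genes tested. Tpi1 was among the 3 members lower with sh20 in CMPs, and Aldoa, Ldha and Hk2 held no match of either guide. Whether the seeds play a part in any value was not tested.

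Promoters of Hk2 and Ldha are shown since their counts had the widest and the narrowest spread among the members relative to their mean. Each window runs from 250 bases before to 50 bases after the annotated start, from RefSeq on GRCm38.p6, and capitals mark ACGTG or GCGTG on either strand, the core of the element that HIF-1 binds.
Hk2, chr6:82774405-82774704, minus strand: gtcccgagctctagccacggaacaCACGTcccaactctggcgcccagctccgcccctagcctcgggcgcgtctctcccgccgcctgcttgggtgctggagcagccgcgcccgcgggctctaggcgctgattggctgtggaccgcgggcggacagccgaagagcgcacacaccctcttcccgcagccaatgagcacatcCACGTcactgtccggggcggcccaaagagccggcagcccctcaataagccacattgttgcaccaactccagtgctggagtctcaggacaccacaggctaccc
Ldha, chr7:46845554-46845853, plus strand: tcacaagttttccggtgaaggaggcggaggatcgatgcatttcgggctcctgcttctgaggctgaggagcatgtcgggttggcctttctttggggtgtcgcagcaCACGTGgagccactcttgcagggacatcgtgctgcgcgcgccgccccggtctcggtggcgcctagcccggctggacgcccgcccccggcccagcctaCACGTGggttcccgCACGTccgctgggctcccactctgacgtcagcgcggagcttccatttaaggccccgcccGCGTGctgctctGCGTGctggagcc
The Hk2 window held 2 matches, and this Ldha window held 7, counting both strands of the palindrome CACGTG, which it held at 2 places. Of the 15 windows annotated for the 10 members, 10 held the core, and 8 members had it in at least 1 window. Over all 32851 windows of the same length 43.8% held the core and 7.15% held CACGTG. Only the Ldha window printed held CACGTG among those of the members. These matches describe letters, not binding.

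The members fell into an abundant and a scarce group of transcripts per length. On the scale of CPM per kb of exon, Hk1 was at 63.7 ± 7.04 (SD over 19 libraries, as for the following values), Tpi1 at 60.8 ± 6.70, Ldha at 60.2 ± 7.95, Aldoa at 58.3 ± 5.75 and Pfkl at 52.0 ± 4.5. Pkm followed at 39.9 ± 5.73 and Gpi1 at 31.2 ± 3.02. Neighbours in this order lay within 1 SD of each other, except that Pfkl was below Aldoa, Pkm below Pfkl and Gpi1 below Pkm by more than the SD of either gene. Pgk1 (3.42 ± 0.36), Hk2 (3.39 ± 2.10) and Gapdh (3.35 ± 0.96) were far below and could not be ordered. With the longest coding transcript as length in place of all exons, Aldoa came first (140 ± 13.8), before Hk1 (127 ± 14), and Gapdh (9.74 ± 2.79) came before Pgk1 (4.20 ± 0.44) and Hk2 (3.67 ± 2.27).

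The low Gapdh and Pgk1 values concern uniquely placed reads only. Of all stretches of 50 bases in their longest coding transcripts, 82.5% in Gapdh and 68.0% in Pgk1 also occur in a transcript of another gene, and HTSeq by default assigns no read with several alignments. Gapdh had 38 to 138 counts and Pgk1 27 to 43 counts per library. The shared part was 34.4% in Pkm, 25.3% in Gpi1, 16.7% in Ldha, 13.5% in Aldoa, 7.51% in Tpi1, 2.55% in Hk1 and 0.054% in Pfkl, and was 0 in Hk2. Levels of genes with a large shared part are thus uncertain.

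Raw counts of several abundant members hardly varied. Ldha had 908 to 988 counts in the 19 libraries, a 1.09-fold range, while library totals spanned a 1.64-fold range. Tpi1 had 729 to 872 counts and Aldoa 945 to 1214. The variance of Ldha counts over the libraries was 0.45 times their mean, below what independent counting gives. Of 10484 genes that averaged 50 counts or more, 47 (0.448%) had a variance below their mean, and the median ratio was 25.5. The variance of Pgk1 was 0.52 times its mean of 36.9 counts, which is too low for it to be among those genes. The authors removed duplicate alignments before counting, and no gene of 13170 that averaged 10 counts or more exceeded 1 count per exonic base, the highest being 0.988. Hk1 (2072 to 3186 counts) and Pfkl (1334 to 2149) varied more, and Hk2 (11 to 232) spanned a 21.1-fold range. Where a raw count stays level, its CPM falls as the library total rises. Over the 19 libraries the Pearson r of log2 CPM with log2 library total was -0.97 for Tpi1, -0.96 for Aldoa and Ldha and -0.73 for Pkm. For the other members it ran from -0.53 (Pgk1) to 0.48 (Gapdh). Its median over the genes that averaged 50 counts or more was 0.01.

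**Figure D1:**
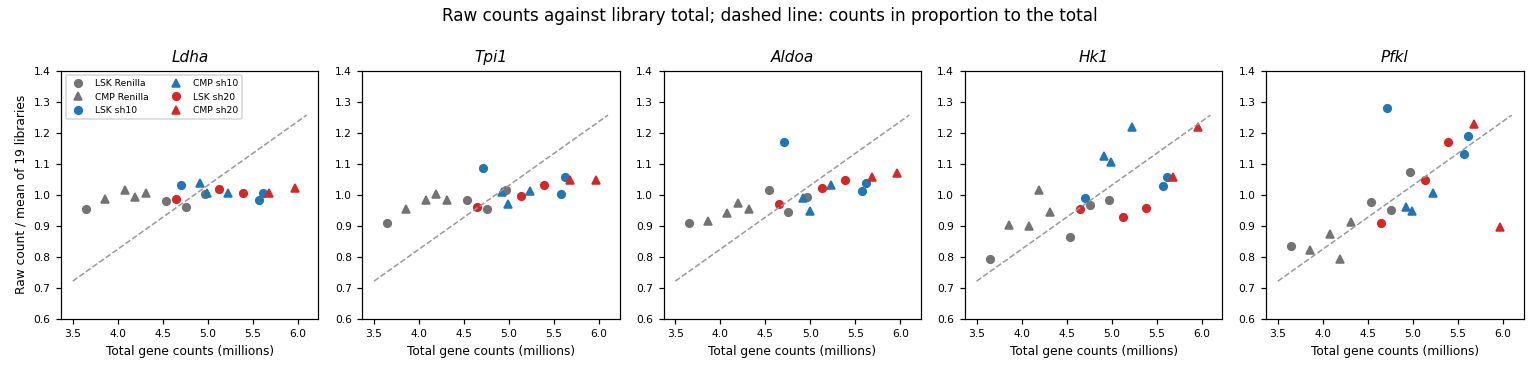
Raw counts of Ldha, Tpi1, Aldoa, Hk1 and Pfkl, each divided by its mean over the 19 libraries, against the total gene counts of the library (circles LSK, triangles CMP; grey Renilla, blue sh10, red sh20; the dashed line is proportion to the total). Ldha stays between 908 and 988 counts across the whole range of totals, whereas Hk1 and Pfkl range more widely, from 2072 to 3186 and from 1334 to 2149 counts.

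The question behind the knockdown was which genes change upon Spehd depletion in each population, and the pooled comparison in CMPs set 5 Spehd shRNA libraries against 4 Renilla libraries. No member passed an adjusted p of 0.05 in edgeR's quasi-likelihood test, where 0.116% of 12912 genes were called. At an unadjusted p under 0.05 there were 4 (Aldoa, Tpi1, Pkm and Ldha), beside 16.6% of all genes. DESeq2 called those 4 as lower, beside 9.74% of the 9054 genes to which it gave an adjusted p. The 4 had log2 fold changes of -0.24 ± 0.06 (SE) for Aldoa, -0.30 ± 0.07 for Tpi1, -0.32 ± 0.08 for Pkm and -0.33 ± 0.08 for Ldha, with edgeR adjusted p of 0.0862, 0.0796, 0.0902 and 0.0857. In these 4 the CPM of the knockdown and control libraries did not overlap, which held for 8.32% of 15066 genes in either direction. Their raw counts did overlap, Ldha for example at 956 to 988 with knockdown and 938 to 966 with Renilla. The median log2 fold change over the 10 members was -0.13, with 8 negative and 2 positive values, beside 0.02 over all genes tested. The positive values were those of Hk2 (0.64 ± 0.66) and Gapdh (0.48 ± 0.29).

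With sh20 Aldoa, Tpi1 and Ldha were lower in CMPs. Aldoa, which cleaves fructose-1,6-bisphosphate, lay at 188 and 192 CPM with sh20 and at 250, 246, 229 and 239 CPM with Renilla. It fell by 0.33 ± 0.06 on the log2 scale (edgeR adjusted p = 0.0194). Tpi1, which interconverts the triose phosphates, lay at 142 and 147 CPM with sh20 and at 201, 195, 182 and 193 CPM with Renilla. It fell by 0.40 ± 0.07 (edgeR adjusted p = 0.0146). Ldha, which makes lactate from pyruvate, lay at 164 and 167 CPM with sh20 and at 246, 229, 221 and 237 CPM with Renilla. It fell by 0.48 ± 0.07 (edgeR adjusted p = 0.0093). The groups did not overlap in any of the 3. In raw counts none of the 3 was lower with sh20. Ldha had 971 and 956 counts with sh20 and 938, 943, 956 and 966 with Renilla. Aldoa (1112 and 1097, beside 951 to 1011) and Tpi1 (840 and 839, beside 764 to 804) had more counts in both sh20 libraries than in any Renilla library, so their fall is relative to the library totals.

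These were 3 of 10 members, beside 6.17% of 13824 genes called for sh20 in CMPs. The median log2 fold change of the members was -0.29 and that of all genes tested 0.01. In CPM 8 members did not overlap with Renilla, 7 lower and 1 higher, and 28.5% of 15066 genes did not overlap. The upper-pathway members Hk1 (-0.22 ± 0.06, adjusted p = 0.0674), Hk2 (-1.62 ± 0.43, 0.0570) and Gpi1 (-0.25 ± 0.06, 0.0505) did not pass, nor did Pkm (-0.36 ± 0.10, 0.0694). Gapdh was at 23.3 and 20.7 CPM with sh20 and at 9.03 to 13.5 CPM with Renilla, a log2 difference of 0.89 ± 0.26 (edgeR adjusted p = 0.0732). The 2 sh20 libraries are the deepest of all, and with log2 of the library total in the fit none of the 10 was called, nor any of the 13824 genes, with Ldha at 0.00 ± 0.24. Without replicate B of sh20 Aldoa (-0.32 ± 0.09, edgeR adjusted p = 0.0644) and Tpi1 (-0.38 ± 0.10, 0.0509) lost their calls, and Ldha and Hk1 were called, beside 5.7% of genes. Without replicate C of sh20 6 members were called, beside 21.9%. With no filter on low counts Aldoa lost its call (-0.32 ± 0.10, adjusted p = 0.0614). Red cell genes were also higher in these libraries (206 to 231 CPM summed over 7 genes, beside 126 to 146 with Renilla), and Cd34 lower (187 in both, beside 298 to 407). Kit (445 to 639 CPM, beside 645 to 812), the 7 genes fixed for the LSK gate (692 to 870, beside 904 to 1075) and the 5 for the CMP gate (1287 to 1476, beside 1663 to 1811) were also lower without overlap. Lymphoid, macrophage, megakaryocyte and neutrophil sums overlapped with Renilla. The part of these cell markers was not tested, and in bulk samples fewer cells of a type and less RNA per cell cannot be told apart.

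With sh10 in CMPs no member passed, while 1.97% of 13824 genes were called. At an unadjusted p under 0.05 there were 5 members, beside 21.2% of genes, and DESeq2 called 3, beside 8.83% of genes. Ldha lay at 207, 192 and 199 CPM with sh10 and differed from Renilla by -0.23 ± 0.06 (edgeR adjusted p = 0.0777). Tpi1 (-0.23 ± 0.06) and Aldoa (-0.19 ± 0.05) had values close to this. In raw counts these genes overlapped with Renilla, with Ldha at 988, 956 and 956 beside 938 to 966. The members' median log2 fold change was -0.08 and that of all genes -0.01. In CPM 5 members did not overlap with Renilla, 4 lower and 1 higher, beside 23.7% of 15066 genes. The Renilla libraries are the same as in the sh20 comparison, so the lower values under both shRNAs are not independent.

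**Figure D2:**
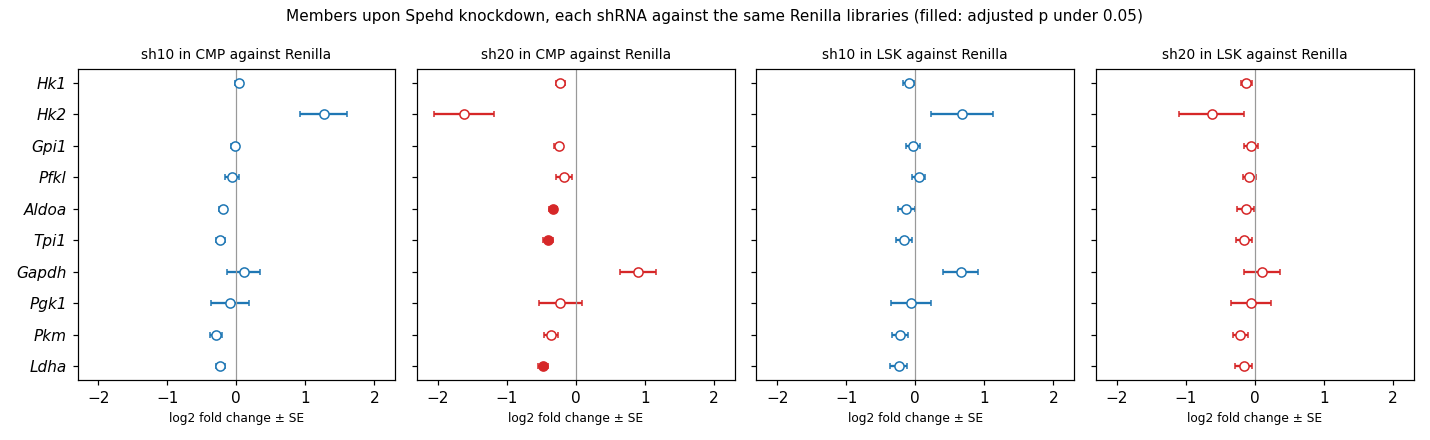
Log2 fold change ± SE of the 10 members against Renilla for sh10 and sh20 in CMP and LSK libraries, with filled points for an edgeR adjusted p under 0.05. Filled points are Aldoa, Tpi1 and Ldha with sh20 in CMPs, and Hk2 lies on opposite sides of 0 for the shRNAs, at 1.26 and -1.62 in CMPs.

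Hk2, the inducible hexokinase that can bind mitochondria, was the member that separated the 2 Spehd shRNAs. In CMPs it lay at 22.9, 20.7 and 26.9 CPM with sh10, at 11.3, 8.26, 12.7 and 6.61 CPM with Renilla and at 1.86 and 4.38 CPM with sh20. The 3 groups did not overlap, with sh10 highest and sh20 lowest. Tested directly, sh20 was below sh10 by a log2 difference of -2.89 ± 0.46 (edgeR adjusted p = 0.0134), and it was the only member called, beside 6.41% of 13824 genes. Against Renilla the differences of 1.26 ± 0.34 for sh10 (adjusted p = 0.0786) and -1.62 ± 0.43 for sh20 (adjusted p = 0.0570) did not pass. The sh20 values rest on 11 and 25 raw counts, and both sh20 libraries are deeper than every sh10 library, so depth and shRNA cannot be told apart. Leaving out replicate A or replicate B of sh10 ended the call between the shRNAs, at adjusted p = 0.0516 and 0.0549, and so did log2 of the library total in the fit (-2.55 ± 0.78, adjusted p = 0.37). With replicate B or replicate C of sh20 left out 2 members were called between the shRNAs, beside 7.02% and 23.9% of genes, and Hk2 was called as higher with sh10 than with Renilla. Cell markers also differed between these libraries. Summed over each list, red cell (206 to 231 CPM with sh20, 75.9 to 135 with sh10), macrophage (227 to 302, 86.5 to 103), megakaryocyte (831 to 858, 564 to 708) and lymphoid genes (150 to 228, 84.5 to 145) were higher with sh20 without overlap. The genes of the LSK gate (692 to 870, 1024 to 1119) and of the CMP gate (1287 to 1476, 1865 to 2001) were lower without overlap, and neutrophil genes overlapped. Their part in the Hk2 values was not tested.

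The other hexokinase, Hk1, constitutive in most tissues, differed between the shRNAs by -0.26 ± 0.07 in CMPs (edgeR adjusted p = 0.0501). It lay at 538 and 484 CPM with sh20 and at 617, 639 and 602 CPM with sh10, without overlap. Of the 10 members 7 did not overlap between sh20 and sh10, beside 41.3% of 15066 genes. Their median log2 difference was -0.16, and that of all genes was 0.00. The ratio of Hk1 to Hk2 counts was 22.4 to 30.9 with sh10, 45.0 to 87.2 with Renilla and 111 to 289 with sh20 in CMPs.

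In LSK cells no member passed in any knockdown comparison, and no gene of 13441 or 13828 did (0% called). For both shRNAs together 1 member had an unadjusted p under 0.05, Pkm at -0.21 ± 0.09, beside 3.66% of genes, and DESeq2 called 0 members and 0 genes. The median over the 10 was -0.08 beside 0.00 over all genes. For sh10 1 member (Gapdh, 0.66 ± 0.26) had an unadjusted p under 0.05, for sh20 0, and between the shRNAs 1 (Hk2), beside 3.3%, 8.33% and 9.17% of genes. DESeq2 called 0 members in each, beside 3, 195 (1.16%) and 256 (1.47%) genes. Gapdh lay at 14.6, 20.0 and 17.1 CPM with sh10 and at 8.01 to 12.2 CPM with Renilla in LSK cells, so those groups did not overlap. Lymphoid genes were also higher in these sh10 libraries (166 to 209 CPM, beside 118 to 161 with Renilla) and CMP gate genes lower (1587 to 1827, beside 1917 to 2237), without overlap, and their part was not tested. Without overlap with Renilla in LSK cells were 0 members for both shRNAs together, 4 for sh10 and 0 for sh20, beside 0.903%, 6.54% and 11.9% of 15066 genes. Between the shRNAs there were 2, beside 13% of genes.

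The order of the Hk2 group means was the same in LSK cells, with a wider spread. It lay at 40.8, 38.0 and 40.5 CPM with sh10, at 26.1, 21.8, 17.4 and 34.2 CPM with Renilla and at 4.33, 28.3 and 16.9 CPM with sh20. The sh10 libraries stood above all others, and the sh20 libraries overlapped with Renilla. The log2 difference between sh20 and sh10 was -1.30 ± 0.50 (edgeR adjusted p = 0.444). Between these libraries macrophage genes were higher with sh20 (391 to 505 CPM, beside 199 to 328), and lymphoid (79.8 to 141, beside 166 to 209) and neutrophil genes (6.89 to 15.9, beside 69.5 to 299.8) were lower, without overlap, and their part was not tested.

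**Figure D3:**
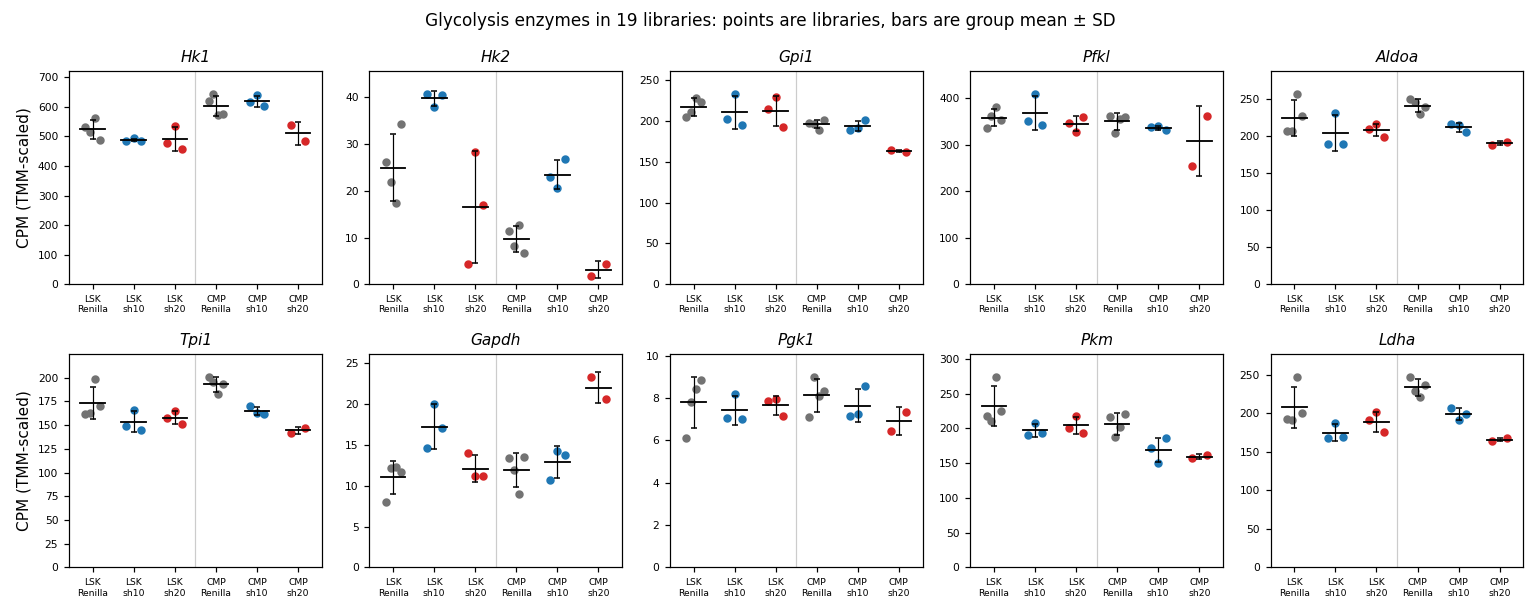
CPM of each member (TMM-scaled, axis from 0) in the 19 libraries by cell type and shRNA, with points for libraries and bars for the group mean ± SD. Hk2 shows the widest range relative to its level, from 1.86 CPM in a CMP sh20 library to 40.8 CPM in an LSK sh10 library, and Gapdh is highest in the 2 CMP sh20 libraries.

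Whether the knockdown effect differed between the populations was tested as an interaction over all 19 libraries. No member was called (0.0531% of 15066 genes were), 0 had an unadjusted p under 0.05, beside 10.1% of genes, and DESeq2 called 0, beside 97 genes (0.567%). The members' values ran from -0.22 to 0.11, with a median of -0.12 beside -0.04 over all genes. Ldha had -0.17 ± 0.11 and Tpi1 -0.17 ± 0.10. The values in CMPs and in LSK cells are therefore not shown to differ.

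The step from LSK to CMP in the Renilla control changed both hexokinases, in opposite directions. Hk1 lay at 534, 515, 564 and 487 CPM in LSK cells and at 619, 645, 573 and 577 CPM in CMPs. It rose by a log2 difference of 0.20 ± 0.06 (edgeR adjusted p = 0.0303). Hk2 fell by 1.36 ± 0.41 (edgeR adjusted p = 0.0266), from a mean of 24.9 ± 7.17 CPM (SD, n = 4) to 9.73 ± 2.79 CPM (SD, n = 4). Neither overlapped between the populations. These were 2 of 10 members, beside 19.8% of 15066 genes called, and 3 members did not overlap beside 31.1%.

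The other 8 members did not pass in Renilla, with values between -0.17 for Pkm and 0.17 for Ldha. Gpi1 was at 205 to 229 CPM in LSK cells and at 189 to 201 CPM in CMPs, and did not pass at -0.15 ± 0.07 (edgeR adjusted p = 0.18). The median of the 10 was 0.08 and that of all genes -0.02. Neither hexokinase was called without replicate A or B of CMP Renilla or replicate A or D of LSK Renilla (14.1%, 14.1%, 14.5% and 15.4% of genes called). Hk2 alone lost its call without replicate D of CMP Renilla (16.2%), and Hk1 alone without replicate B of LSK Renilla (15.3%). Both lost it with an offset modelled on count density per exonic base (0.05 ± 0.06 for Hk1, -1.13 ± 0.41 for Hk2). With that offset Gpi1 and Pkm were called as lower, beside 16.9% of genes.

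With the Spehd shRNAs the same step gave 1 call for sh10 and 3 for sh20, and whether the step differed from that with Renilla was not tested for sh10 and sh20 apart. With sh10, Hk1 rose by 0.34 ± 0.07 (edgeR adjusted p = 0.0034), from 486, 493 and 484 CPM in LSK cells to the CMP values above, and was the only member called beside 16.1% of 15066 genes. Hk1 was called without any 1 library, and lost its call with no filter (0.31 ± 0.11, edgeR adjusted p = 0.0756) and with upper quartile scaling (0.22 ± 0.08, 0.0751). Replicate B of LSK sh10 stood apart in some genes, such as Hif1a (35.1 CPM, beside 145 and 151 in A and C), though not in Hk1. Without it 26.9% of genes were called from LSK to CMP with Renilla. Hk2 differed by -0.76 ± 0.45 (adjusted p = 0.279). With sh20 there were 3 members called beside 14.6%. Gapdh was higher (0.86 ± 0.27, edgeR adjusted p = 0.0420), and Gpi1 (-0.38 ± 0.10, 0.0134) and Hk2 (-2.39 ± 0.59, 0.0115) were lower. Every CMP sh20 library is deeper than every LSK sh20 library, so depth and population cannot be told apart in this step.

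Gpi1, which makes fructose-6-phosphate, lay at 215, 230 and 193 CPM in LSK cells and at 164 and 162 CPM in CMPs with sh20. Gapdh lay at 14, 11.2 and 11.2 CPM in LSK cells and at 23.3 and 20.7 CPM in CMPs. Neither pair of groups overlapped, whereas Hk2 did, since an LSK library (4.33 CPM) lay just under the higher CMP library (4.38 CPM). The 10 members had a median of -0.04 with sh10 and -0.16 with sh20, beside 0.01 and -0.02 over all genes. Groups without overlap numbered 6 members for sh10 and 6 for sh20, beside 39.5% and 37.1% of genes. Without replicate B of LSK sh20 only 1 member was called with sh20, beside 12.7% of genes. Leaving out a CMP sh20 library leaves a lone one in that group, which is then assumed to vary like the others. Gapdh lost its call with no filter (0.85 ± 0.48, edgeR adjusted p = 0.395), with upper quartile scaling (0.82 ± 0.29, 0.0704), with the offset for count density (0.89 ± 0.30, 0.052) and without any 1 of 12 of the 19 libraries (0.78 to 0.95, adjusted p up to 0.168). These 12 were replicates A and B of CMP Renilla, B and D of LSK Renilla, C of LSK sh10, B and C of LSK sh20 and all of CMP sh10 and CMP sh20. Gpi1 lost its call with no filter (-0.40 ± 0.16, 0.111) and without either CMP sh20 library or replicate B of LSK sh20, and Hk2 without replicate B of CMP sh20 (-1.89 ± 0.72, 0.115).

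Cell markers moved with the same step under both shRNAs. With sh20, red cell (8.98 to 112 CPM in LSK cells, 206 to 231 in CMPs), megakaryocyte (559 to 651, 831 to 858) and lymphoid genes (79.8 to 141, 150 to 228) were higher in CMPs without overlap. Macrophage genes (391 to 505, 227 to 302) and those of the LSK gate (1539 to 1584, 692 to 870) and the CMP gate (1758 to 1906, 1287 to 1476) were lower without overlap, and neutrophil genes overlapped. With sh10, red cell (12.3 to 44.3, 75.9 to 135) and CMP gate genes (1587 to 1827, 1865 to 2001) were higher, and neutrophil (69.5 to 299.8, 2.5 to 12.6), lymphoid (166 to 209, 84.5 to 145) and macrophage genes (199 to 328, 86.5 to 103) lower without overlap. Their part in the values of the members was not tested.

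Several isoenzymes outside the 10 differed between the populations. Hk3, a hexokinase of myeloid cells, was at 187 to 220 CPM in LSK cells and at 33.9 to 49.96 CPM in CMPs with Renilla, and fell by 2.25 ± 0.15 (edgeR adjusted p = 7.69e-08). Ldhb, the lactate dehydrogenase subunit that favours pyruvate, fell by 1.89 ± 0.29 (edgeR adjusted p = 0.000301) and Aldoc, a second aldolase, by 1.07 ± 0.32 (0.0268). Pfkm, the muscle-type phosphofructokinase, rose by 0.65 ± 0.14 (0.0041). Pklr, the pyruvate kinase of liver and red cells, and the muscle enolase Eno3 rose by 4.46 ± 0.56 and 1.58 ± 0.26. Pfkp (-0.10 ± 0.09), Eno1 (0.08 ± 0.12) and Pgam1 (-0.47 ± 0.31) did not pass. Of 14 other glycolysis genes tested 3 were higher and 3 lower, with a median of -0.22, beside 19.8% of all genes called and a median of -0.02.

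The ratio of Ldha to Ldhb counts was 3.53 to 4.09 in LSK cells and 13.2 to 18.9 in CMPs with Renilla. Red cell genes summed to 7.17 to 15.2 CPM in LSK cells and to 126 to 146 CPM in CMPs, and neutrophil genes, 8 in the list, to 5.27 to 328 and 1.94 to 11.02 CPM. Macrophage genes (7 in the list) summed to 263 to 394 CPM in LSK cells and to 37.7 to 242 CPM in CMPs, and megakaryocyte genes (5) to 480 to 649 and 698 to 1039 CPM, both without overlap. Lymphoid genes (7) overlapped, at 118 to 161 and 134 to 202 CPM. LSK gate genes summed to 1645 to 1863 CPM in LSK cells and to 904 to 1075 CPM in CMPs. The genes fixed for the CMP gate, among them Kit, Cd34 and Mpo, were also lower in CMPs (1663 to 1811 CPM) than in LSK cells (1917 to 2237), so their sum did not mark the CMP libraries. The part of these markers in the values of the hexokinases and isoenzymes was not tested.

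**Figure D4:**
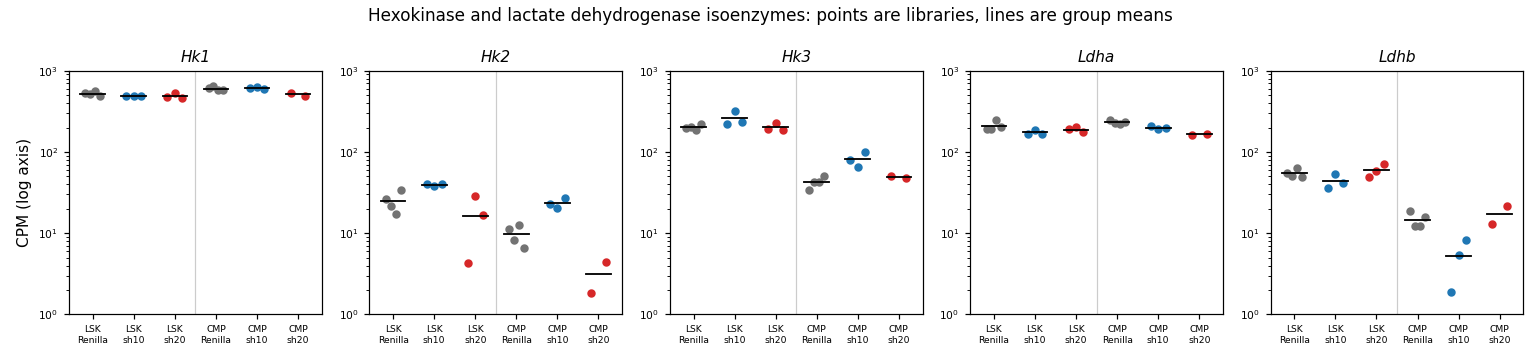
CPM on a log axis of the hexokinases Hk1, Hk2 and Hk3 and the lactate dehydrogenase genes Ldha and Ldhb by cell type and shRNA, with points for libraries and lines for group means. Hk3 and Ldhb are lower in every CMP group than in every LSK group, while Hk1 and Ldha stay within a narrow band.

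Against Renilla in CMPs, Hk3 was the only other glycolysis gene called for either shRNA. Hk3 lay at 80.4, 64.8 and 99.7 CPM with sh10 and rose by 0.93 ± 0.18 against Renilla (edgeR adjusted p = 0.0360), beside 1.97% of all genes called. This call was lost with the library total in the fit (0.83 ± 0.55, edgeR adjusted p = 0.989) and without any 1 of the 3 sh10 or 4 Renilla libraries (adjusted p up to 0.126). The CMP gate genes were also higher with sh10 (1865 to 2001 CPM, beside 1663 to 1811), and their part was not tested. With sh20 it lay at 50.04 and 48.3 CPM (0.22 ± 0.20, adjusted p = 0.537). Ldhb was at 1.89, 5.42 and 8.34 CPM with sh10, against 12.2 to 18.7 CPM with Renilla, and did not pass (-1.50 ± 0.46, adjusted p = 0.108). Eno1, whose raw counts ran only from 251 to 293 in all libraries, had -0.45 ± 0.13 with sh20 (adjusted p = 0.0728). Eno3 was higher with sh20 than with sh10 by 0.91 ± 0.22 (edgeR adjusted p = 0.0419), and lost this call with the library total in the fit (0.71 ± 0.44, adjusted p = 0.74), without any 1 library of CMP sh10 or CMP Renilla (0.82 to 0.97, up to 0.117) and without replicate B of sh20 (0.48 ± 0.20, 0.166).

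Genes that feed glycolysis or draw from it were read from lists of the same kind. Of 16 genes of glucose and lactate transport and of pathway control tested for sh20 in CMPs, Bsg, the chaperone of lactate transporters, fell by 0.43 ± 0.06 (edgeR adjusted p = 0.0093) and the transporter Slc16a7 rose by 1.42 ± 0.30 (0.0280). Bsg had 1172 and 1136 raw counts with sh20 and 1082 to 1116 with Renilla. Of 8 pentose phosphate genes, Tkt and Taldo1, of the non-oxidative branch, fell by 0.36 ± 0.05 (0.0093) and 0.43 ± 0.07 (0.0101). These counts stand beside 6.17% of all genes. With the library total in the fit none of the 4 was called, nor any other gene (-0.02 ± 0.23 for Bsg, 2.19 ± 1.38 for Slc16a7, -0.03 ± 0.18 for Tkt and -0.05 ± 0.26 for Taldo1). The offset for count density ended the calls of Bsg (-0.17 ± 0.05) and Taldo1 (-0.26 ± 0.06), beside 3.24% of genes called. The call of Slc16a7 was also lost without any 1 sh10 library, without replicate B, C or D of Renilla and without replicate B of sh20 (adjusted p up to 0.0862). No gene of 14 in the hypoxia list was called for sh20. With sh10 Egln1, the oxygen sensor that marks HIF for degradation, rose by 0.83 ± 0.14 (edgeR adjusted p = 0.0259) and was the only call among those lists beside Hk3. Between the shRNAs Egln1 (-0.71 ± 0.17, adjusted p = 0.0408) and Tkt (-0.23 ± 0.06, 0.0428) were lower with sh20. Egln1 lost its sh10 call with the library total in the fit (0.96 ± 0.43, edgeR adjusted p = 0.989), without any 1 sh10 library and without replicate A, C or D of Renilla (adjusted p up to 0.127). Between the shRNAs both lost their calls with the library total in the fit (-0.62 ± 0.33 for Egln1 and -0.09 ± 0.09 for Tkt) and without any 1 sh10 library (-0.77 to -0.68 and -0.23 to -0.22), as did Egln1 without replicate A, B or D of Renilla or C of sh20, and Tkt without replicate B, C or D of Renilla or B of sh20 (adjusted p up to 0.128 and 0.133).

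From LSK to CMP with Renilla, the lactate and pyruvate transporter Slc16a1 rose by 1.04 ± 0.17 (edgeR adjusted p = 0.000367), and the glucose transporter Slc2a3 fell by 0.73 ± 0.11 (0.000169). Of 17 transport and control genes 2 were higher (Bsg and Slc16a1) and 3 lower (Pdk4, Slc16a7 and Slc2a3). Of 8 pentose phosphate genes Taldo1 (0.26 ± 0.07) and Pgls (0.40 ± 0.13) were higher. Of 14 hypoxia genes Egln1 (-0.67 ± 0.16) and Egln3 (-1.13 ± 0.33) were lower. These shares stand beside the 19.8% called over all genes, and none is read as particular to its list. The list medians were -0.38, 0.24 and -0.17, beside -0.02 over all genes. In LSK cells no gene of these lists was called in any knockdown comparison.

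The genes whose log2 CPM followed the mean standardised value of the members most closely over the 19 libraries were Ly6e (Pearson r = 0.951), H2afy (0.919), Tuba4a (0.912), Arpc4 (0.904) and Ubb (0.899), of 10475 genes compared. All values share the library totals, and cell types and shRNAs are pooled, so this is a description.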

How the data were processed

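Total RNA of sorted cells was made into cDNA with SMART-Seq v4, a kit that does not mark strand. Per the study's methods and the labels, the authors aligned reads with STAR to mm10, removed duplicate alignments with Picard and counted genes with HTSeq; the deposited counts per gene (19 files, unnormalised) were used, without the rows for reads with no gene. Those without a feature were 51.9% to 53.8% of uniquely aligned reads. The methods give default settings, which in HTSeq count by strand, and do not say whether this was changed for these unstranded libraries. If it was not, reads from the other strand of a gene were left out or given to its opposite-strand neighbour. A normalised table was not used. Opposite-strand neighbours such as Hk1os (1 to 43 counts, in Hk1), Gm26762 (134 to 273, in Gpi1), Fam57b, Spsb2 and Iffo1 share exonic or intronic sequence with members, so their reads may be mixed.

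Counts were tested with edgeR 4.0.16 in R 4.3.3 (TMM, filterByExpr at min.count 10 and min.total.count 15, quasi-likelihood test, Benjamini-Hochberg over all genes tested, threshold 0.05). CPM was computed over all 19 libraries. Fits were of CMP or LSK libraries for the knockdown, and of all 19 for the population contrasts and the interaction. Scripts were tested on simulated data. Alternatives were DESeq2 1.42.0, other scalings and filters, replicate letters as a block, library total as a covariate, each library left out, and, added after seeing the data, an offset modelled on count density per exonic base. The 10 members, the gene lists and the tests were chosen with earlier results of these data known. Named beyond the members were called genes of 4 lists (at most 6 each per comparison), 7 isoenzymes, and the 5 most alike genes among those with a mean of at least 50 counts. Depth allows about 27 to 43 counts for the scarcest member, Pgk1, whose SE on the log2 scale was 0.22 to 0.33. Exonic lengths and transcripts are from GENCODE vM21 (GRCm38), a later release than the one counted.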

Additional observations from a re-analysis of the deposited data

Results flagged for a closer look

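Among 20 sets of Renilla values (10 members in 2 populations of 4 libraries), 1 had a library far from the others by Dixon's criterion of 0.829, which chance gives in about 1 of 20. Gapdh was at 8.01 CPM in replicate A of LSK Renilla and at 11.6 to 12.2 CPM in the other 3 libraries (38 raw counts, beside 45 to 61).

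The effects of the 2 Spehd shRNAs on Hk2 in CMPs differed by a tested log2 difference of -2.89 (sh20 minus sh10), with every sh10 library above and every sh20 library below the Renilla libraries. No other member differed between the shRNAs in either population at the threshold.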

How the results depend on the processing

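The number of members called depended on the settings in CMPs. For the pooled knockdown it was 0, and 4 with DESeq2, with upper quartile scaling and with sh10 and sh20 as separate groups, and 2 with all 19 libraries in 1 fit (9.74%, 2.54%, 4.88% and 2.42% of all genes). For sh10 it was 0, and 3 with DESeq2 and with upper quartile scaling (8.83% and 3.26%). For sh20 it was 3, and 8 with DESeq2, 7 with upper quartile scaling, 6 with at least 10 counts in every library (11.1%, 7.69% and 6.92% of all genes called), and 0 with the replicate block and with the library total as covariate (0% of genes in both), where Ldha turned to 0.0035. For sh20 against sh10 it was 1, and 2 with DESeq2, upper quartile scaling and at least 10 counts (13.3%, 6.46% and 6.92%), and 0 with the replicate block and the covariate (0.203% and 0%). From LSK to CMP with Renilla it was 2, and 1 with no filter, at least 10 counts and upper quartile scaling (8.58%, 22.4% and 17.4% of all genes). With sh10 it was 1, and 2 with the covariate and 0 with no filter and upper quartile scaling (17.7%, 7.84% and 15.9%). With sh20 it was 3, and 1 with no filter (8.70%). Leaving out each library in turn gave 0 to 1 (sh10), 2 to 6 (sh20), 0 to 2 (sh20 against sh10), 0 to 3 (Renilla), 1 in every case (LSK to CMP with sh10) and 0 to 4 (LSK to CMP with sh20), while the share of all genes called ran from 0.0659% to 6.99%, 3.13% to 21.9%, 0.615% to 23.9%, 14.1% to 26.9%, 8.59% to 17.3% and 8.91% to 20.6%. Where this left a lone sh20 library, it is assumed to vary like the others. For the pooled knockdown in CMPs the share of all genes called ran from 0% to 2.08% with 1 library left out, the highest without replicate B of sh20. The offset for count density left the numbers of members called as they were. Aldoa, Tpi1 and Ldha were still called for sh20 (edgeR adjusted p = 0.049, 0.040 and 0.026), beside 3.24% of all genes. From LSK to CMP it exchanged Hk1 and Hk2 for Gpi1 and Pkm with Renilla (16.9% of genes), and Gapdh for Pkm with sh20 (15.3%). Upper quartile scaling moved the median of all genes by -0.12 from LSK to CMP with sh10. Other causes were not tested.

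Replicate letters did not meet the criterion for a pairing, a correlation above 0.1 in every pair. The 9 pairs of the same letter and shRNA across populations had 0.0031 to 0.26 (median 0.043), 3 of them above 0.1, and 22 pairs of different letters a median of -0.032 with 1 above 0.1. Whether the letters mark shared animals is not given in the sources used here. The replicate block gave 2, 1 and 2 calls from LSK to CMP with Renilla, sh10 and sh20 (17.8%, 14.7% and 11.8% of genes), and 0 in LSK cells, as in the interaction. With it Hk3 and Egln1 (sh10), Bsg, Slc16a7, Tkt and Taldo1 (sh20) and Egln1, Eno3 and Tkt (between the shRNAs) lost their calls in CMPs, with values of 1.02, 0.86, -0.39, 1.45, -0.33, -0.40, -0.67, 0.92 and -0.21. The block left 0.0362% (sh10), 0% (sh20) and 0.203% (between the shRNAs) of 13824 genes called, so these losses do not single out the genes named. With the covariate all 9 calls were lost too, but so was every call among the 13824 genes in the same comparisons. The losses thus do not single out these genes. Depth and shRNA go together there, and SEs were wider (for sh20, 0.23 beside 0.06 for Bsg and 0.18 beside 0.05 for Tkt). Values for sh20 were -0.02 ± 0.23 for Bsg, -0.03 ± 0.18 for Tkt and -0.05 ± 0.26 for Taldo1. Tkt was at -0.09 ± 0.09 between the shRNAs. The offset ended the calls of Bsg (-0.17 ± 0.05) and Taldo1 (-0.26 ± 0.06) for sh20. No filter ended the calls of Slc16a7 for sh20 and Tkt between the shRNAs. Of 2520 single values under alternatives 122 changed sign, 1 of them called without the alternative. Without a change of sign, 51 values lost a call and 53 gained one, beside 10 calls in 120 member tests without the alternatives. Low counts limit Pgk1, Gapdh and Hk2.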
